A study of Mus musculus with 8 samples.

Results

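The proteasome genes of the mouse were followed in fully grown germinal vesicle (GV) oocytes, in CNOT7&8 KO oocytes against Zp3-Cre control oocytes. Members were all genes of the count table whose symbol starts with Psm, a letter from a to g and a number, without names that end in -ps and a number, which gave 52 of 46078 genes and left out 2. By their known roles, 8 members encode alpha subunits and 7 the constitutive beta subunits of the 20S core, 4 the immune and thymic beta subunits, 6 the ATPases and 11 the other subunits of the 19S cap, 3 and 4 the assembly chaperones of the 19S and 20S particles, and 6 the alternative caps and an inhibitor. The last 3 members carry the name without the role: Psmc3ip encodes HOP2, a factor of meiotic recombination, and Psmb5-ps and Psmb6-ps are processed pseudogenes, which the rule keeps because no number follows the ending.

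Both groups came from C57BL/6J-background females of 4 weeks, whose oocytes were taken 48 h after PMSG, freed of cumulus cells and held at the GV stage in medium with dbcAMP. KO oocytes carried floxed alleles of Cnot7 and Cnot8 (Cnot7 fl/fl and Cnot8 fl/fl) and the Zp3-Cre transgene, which is driven in growing oocytes, and control oocytes carried Zp3-Cre, so both groups express Cre. CNOT7 and CNOT8 are the paralogous CAF1-type deadenylases of the CCR4-NOT complex, which shorten poly(A) tails. Each group had 4 libraries of 100 pooled oocytes each, and how many females gave a pool is not stated in the sources used here. P-values over such pools measure the spread between libraries, which may be partly technical. The files hold raw counts that total 8639444 to 44092144 per library, and 3 counts, taken as the floor of detection, make 0.0802 to 0.326 CPM (counts scaled by library size). Cnot8 was at 33.1 to 36.1 CPM in KO and 154 to 197 CPM in control libraries, and Cnot7 at 622 to 788 CPM against 886 to 1049 CPM. The table counts whole genes, so that deletion of part of Cnot7 cannot be read from it. Of 10 oocyte markers, 5 were lower (Zp1, Zp3, Oosp1, Ooep and Figla), Nobox was higher and 4 did not pass, with a median log2 fold change of −0.32 and a summed level of 18138 to 21121 CPM in control and 14977 to 17367 CPM in KO libraries. Among all genes whose mean reached 20 CPM, 45.2% were lower and 17.5% higher, and among all genes tested 24.1% and 31.2%. The 5 of 10 markers that were lower are thus close to the share of abundant genes. The erythroid markers Hba-a1 and Hbb-bs had no count in any library. Control replicate 1 and KO replicate 4 stood apart from their groups, and calls of members that turn on leaving out one of them are given with both values.

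The proteasome degrades proteins tagged with ubiquitin. The 20S core is a barrel of 4 stacked rings, outer alpha rings that form the gate and inner beta rings that hold the proteolytic sites, and the 19S cap recognizes ubiquitin chains, removes them and unfolds the substrate with a ring of ATPases, which together make the 26S proteasome. In oocytes the ubiquitin-proteasome system removes cyclin B and securin at the exit from meiosis I and takes part in the clearance of maternal proteins after fertilization.

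The level of most genes of the constitutive 26S particle was lower in CNOT7&8 KO oocytes. Among 31 subunit genes (7 alpha, 7 beta, 6 ATPase and 11 non-ATPase genes), 25 were lower and 2 higher at an adjusted p of at most 0.05 in edgeR's quasi-likelihood test, and 4 did not pass. The background was 24.1% lower and 31.2% higher over all genes tested, and 45.2% and 17.5% over genes whose mean reached 20 CPM. The summed level of the 31 genes was 4898, 5019, 5167 and 4869 CPM in control replicates 1 to 4 and 3236, 3400, 3171 and 2975 CPM in KO replicates 1 to 4, which is 4988 ± 136 CPM (SD, n = 4) against 3195 ± 176 CPM, or 64.1% of the control sum. The groups did not overlap. Shares of the total raw counts, which scale by library size alone, were 0.416% to 0.487% in control and 0.326% to 0.377% in KO libraries and did not overlap either. The median log2 fold change of the 31 genes was −0.61, with quartiles of −0.81 and −0.51. With library size alone this median was −0.33, so the fall was smaller there. In RNA from pooled oocytes, a smaller amount of RNA per oocyte and a change in the rest of the transcriptome cannot be told apart, since all values are shares of a library.

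Of all 52 members, 49 passed the filter on low counts. At an adjusted p of at most 0.05, 29 of them (59.2%) were lower, against 24.1% of the 19241 genes tested, and 6 (12.2%) were higher, against 31.2%. The median log2 fold change was −0.56 over these members and 0.12 over all genes tested. Libraries did not overlap between the groups for 25 members with lower levels (51.0%, against 21.4% of all genes) and for 6 with higher levels (12.2%, against 27.0%). Members are mostly abundant, and abundant genes were more often lower in KO oocytes in this comparison, so the shares were also set beside those of genes whose mean reached 20 CPM, a background chosen after the data were seen. There, 28 of 38 members (73.7%) were lower against 45.2% of 6977 genes, 1 (2.63%) was higher against 17.5%, and the median log2 fold change was −0.59 against −0.29. With the fold change of at least 2 that defines a DEG, 1 member was lower (2.04%, background 6.56%) and 3 were higher (6.12%, background 23.8%), so most of the changes were smaller than 2-fold. The plot of fold change by class shows that the lower genes lie close together in each class of the constitutive particle.

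**Figure D1:**
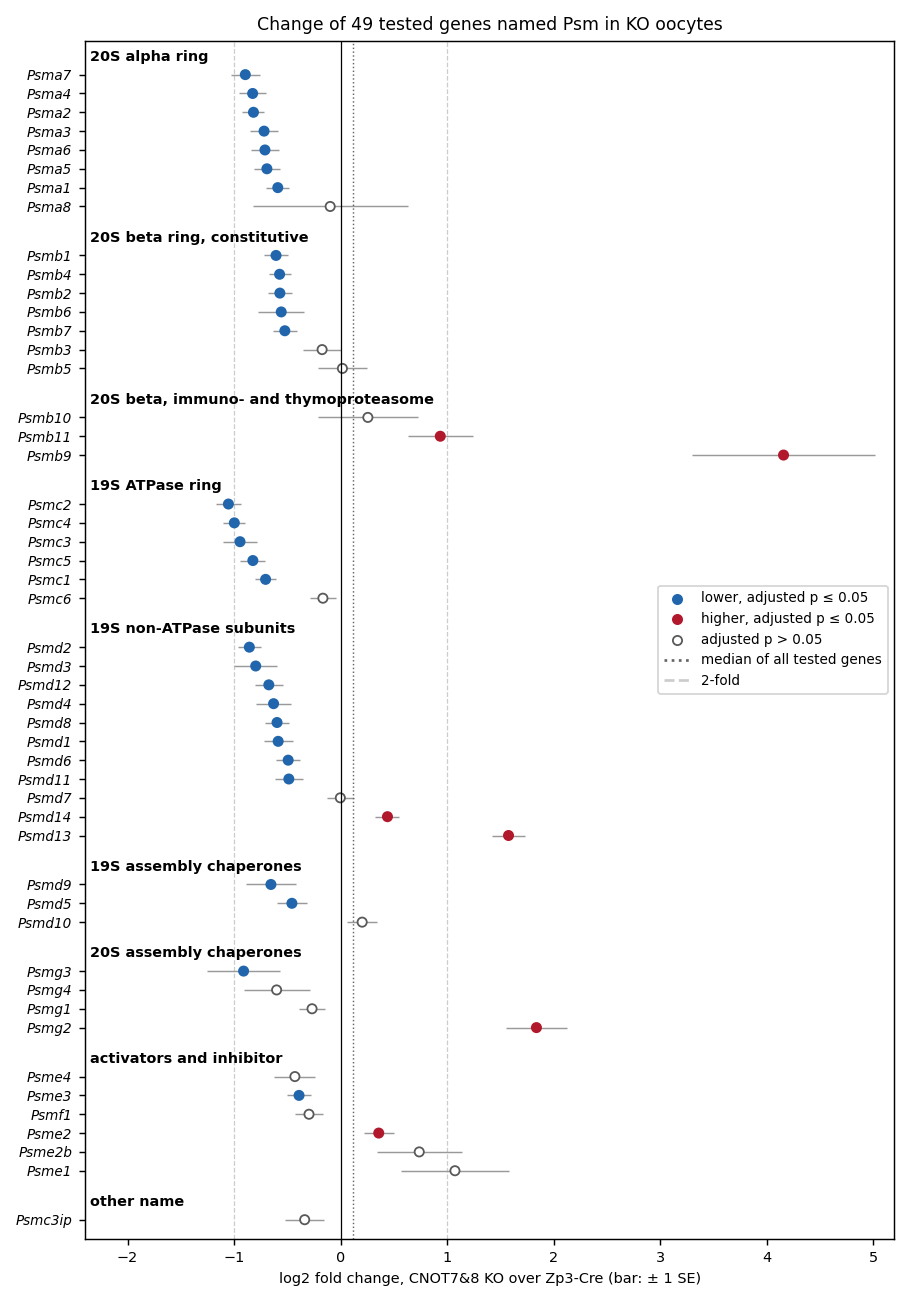
Log2 fold change of the 49 tested members, KO over control (x axis), by gene (y axis) and class, with bars of 1 standard error; blue points are lower and red points higher at an adjusted p of at most 0.05, and open points did not pass. The points of the alpha, beta and ATPase genes lie mostly between −1.05 and −0.52, left of the dotted median of all genes at 0.12, while Psmd13, Psmg2 and Psmb9 lie right of the 2-fold line. The fitted value of Psmb9 rests on 1 control count.

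The size of these changes depended on how library sizes were scaled. TMM scaling, used throughout, sets factors of 0.849 to 0.943 in control and 1.07 to 1.14 in KO libraries. With library size alone, all genes together shifted upward by 0.29 (median, log2 scale), the median of the members was −0.29 and that of all genes 0.40, and the distance between both medians was −0.69 in place of −0.68. Under that scaling 19 members were lower and 9 higher, so that 67.9% of the calls were lower in place of 82.9%, against 13.6% of all genes lower and 40.2% higher. All 19 were genes of the constitutive 26S particle, of which 2 were higher, as with TMM. None of the 29 members called lower and none of the 6 called higher changed direction in any of the 18 other settings in which they were tested. Without control replicate 1 and KO replicate 4 together, a choice made after seeing the data, 34 members were lower and 7 higher. In that setting 26 of the 31 constitutive subunits were lower, and no member was a DEG with lower level. Calls over all genes moved too, to 4899 lower and 5927 higher in place of 4631 and 5997.

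**Figure D2:**
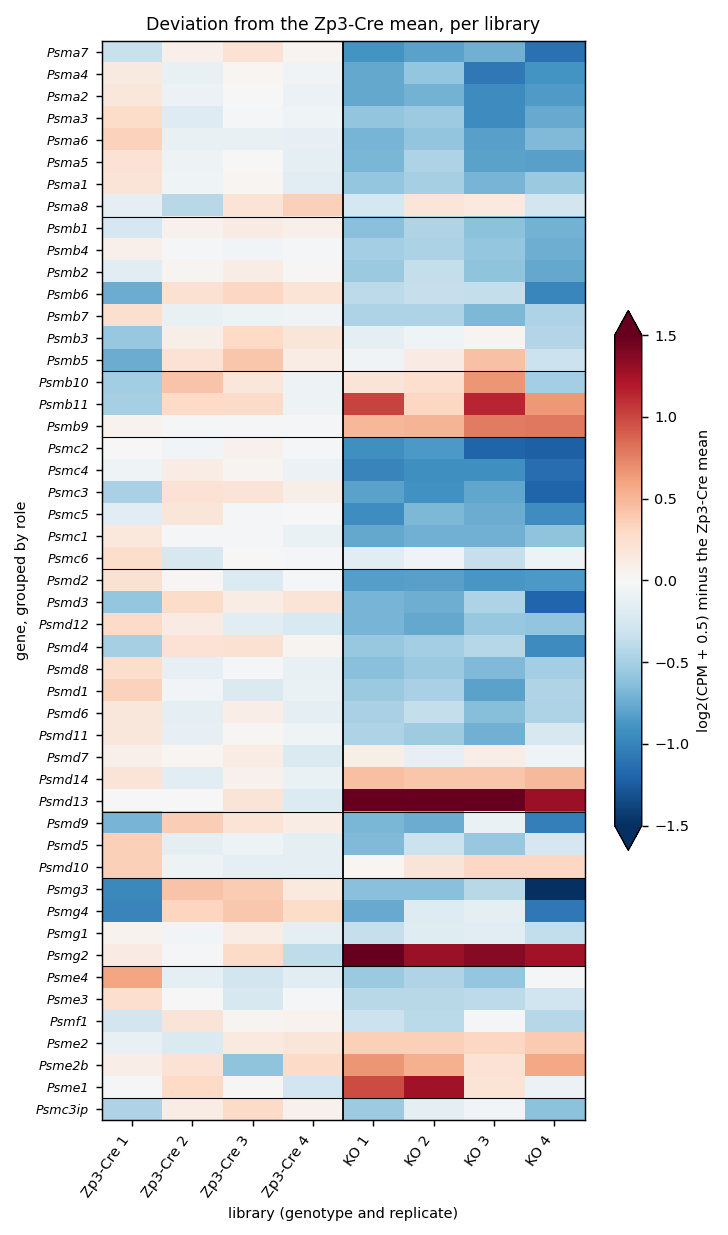
Log2(CPM + 0.5) of each tested member minus its mean over control libraries, for each library (columns) and gene (rows grouped by class), with blue below and red above the control mean and the colour scale ending at 1.5 on either side. The 4 KO columns are blue for most alpha, beta and ATPase genes, and control replicate 1 is blue for Psmb6, Psmb5, Psmd9, Psmg3 and Psmg4 while red for Psme4.

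All 7 alpha subunits of the somatic ring were lower, with log2 fold changes from −0.89 to −0.59, and their libraries did not overlap between the groups. The summed level of the 8 alpha genes was 1443 ± 77.0 CPM in control and 838 ± 56.7 CPM in KO oocytes (SD, n = 4), or 58.1%. Psma7 encodes the alpha subunit that Psma8 replaces in the testis-specific particle of spermatocytes. Psma7 (ENSMUSG00000027566, GRCm38 chr2:180036374-180042433, minus strand) was at 283, 376, 417 and 369.5 CPM in control and 192, 204, 217 and 164 CPM in KO replicates 1 to 4. Its highest KO library was below its lowest control library, control replicate 1, and the log2 fold change was −0.89 ± 0.14 (SE; adjusted p = 0.00015, edgeR's quasi-likelihood test). Psma2, which has the highest CPM among the alpha genes, went down to 252 ± 17.3 CPM in KO oocytes against 445 ± 39.8 CPM, a log2 fold change of −0.82 (adjusted p = 4.16e-05, edgeR). Psma8 was near the floor in both groups, at 0.160, 0.0493, 0.340 and 0.437 CPM in control and 0.109, 0.330, 0.308 and 0.102 CPM in KO libraries. Its log2 fold change of −0.10 ± 0.73 (adjusted p = 0.918, edgeR) leaves changes of either sign possible, and it was 0.19 with library size alone.

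Of the 7 constitutive beta subunits, 5 were lower by 0.61 to 0.52 on the log2 scale and 2 did not pass, and their summed level was 70.4% of control (762 ± 69.7 against 1082 ± 106 CPM, SD, n = 4). Among the 3 that carry the proteolytic sites, Psmb6 (caspase-like) and Psmb7 (trypsin-like) were lower, whereas Psmb5 (chymotrypsin-like) was not called. Psmb7 was at 270.2, 213, 218 and 222 CPM in control and 166, 167, 143 and 166 CPM in KO libraries, without overlap (log2 fold change −0.52 ± 0.11, adjusted p = 0.00174, edgeR). Psmb6 was at 139, 274, 288 and 268 CPM in control and 177, 183, 181 and 118 CPM in KO libraries. Control replicate 1 lies among the KO libraries of Psmb6, and the log2 fold change of −0.56 ± 0.21 (adjusted p = 0.0423, edgeR) became −0.75 without it (adjusted p = 0.000599) and −0.42 without KO replicate 4 (adjusted p = 0.134). The call of Psmb6 held in 7 of the 18 other settings and was lost with library size alone (−0.29, adjusted p = 0.318). Psmb5 was at 21.0, 41.3, 47.6 and 38.2 CPM in control and 34.1, 38.6, 48.4 and 28.4 CPM in KO libraries. The groups of Psmb5 overlap throughout, with a log2 fold change of 0.02 ± 0.23 (adjusted p = 0.954, edgeR), which was −0.18 without control replicate 1. Psmb1, a structural subunit with the lowest fold change of the class, was at 169, 210.5, 218 and 212 CPM in control and 129.9, 148, 131 and 123 CPM in KO libraries and did not overlap (−0.61 ± 0.11, adjusted p = 0.000746, edgeR). The other gene that did not pass, Psmb3, had a value of −0.17 ± 0.18 (adjusted p = 0.426, edgeR) and passed without control replicate 1 (−0.33, adjusted p = 0.0347), and Psmb2 and Psmb4 each fell by 0.57.

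The ATPase ring had the lowest median of any class, −0.88, with 5 of 6 genes lower and without overlap of the groups. Psmc2, which encodes the ATPase RPT1, was the only member called a DEG with lower level. Psmc2 (ENSMUSG00000028932, GRCm38 chr5:21785283-21803787, plus strand) was at 179, 175, 188 and 176 CPM in control and 94.3, 98.4, 77.5 and 76.3 CPM in KO replicates 1 to 4. The control libraries lay close together and far from the KO libraries, and the log2 fold change was −1.05 ± 0.11 (adjusted p = 1.3e-05, edgeR). Psmc4, the ATPase RPT3, lay just short of the 2-fold threshold with −0.998 ± 0.10 (adjusted p = 9.27e-06, edgeR), at 187 ± 12.2 against 93.6 ± 6.69 CPM. Psmc3, the ATPase RPT5, followed with −0.94 ± 0.16 (adjusted p = 0.00038, edgeR). Which of these genes pass 2-fold turned on single libraries: without control replicate 1 the DEGs with lower level were Psmc2, Psmc3, Psmc4 and Psmg3, without KO replicate 3 they were Psmc4 and Psmg3, and without KO replicate 4 there was none, while Psmc2 and Psmc4 stayed lower at an adjusted p of at most 0.000113 and 0.000147 under each of the 18 settings. Psmc6, the ATPase RPT4, was at 162, 114, 135 and 132 CPM in control and 120.2, 130.1, 106 and 128 CPM in KO libraries. Its groups overlap, and −0.17 ± 0.12 did not pass (adjusted p = 0.279, edgeR); with library size alone it was 0.12.

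Among the 11 other subunits of the 19S cap, 8 were lower, 2 were higher and 1 did not pass. Psmd2 encodes RPN1, the scaffold that docks ubiquitin receptors and shuttle proteins. Psmd2 was at 234, 202, 173 and 195 CPM in control and 113, 114, 109 and 109.5 CPM in KO libraries. The KO libraries lay close together and below each control library, with a log2 fold change of −0.86 ± 0.11 (adjusted p = 4.64e-05, edgeR). Psmd4, the ubiquitin receptor RPN10, was at 346, 568, 571 and 503 CPM in control and 328, 343, 362 and 252 CPM in KO libraries. Control replicate 1 of Psmd4 lies within the KO range, and the log2 fold change of −0.63 ± 0.16 (adjusted p = 0.00626, edgeR) was −0.77 without it and no longer passed with library size alone (−0.35, adjusted p = 0.118). Psmd3 fell by 0.80, and Psmd12, Psmd8, Psmd1, Psmd6 and Psmd11 fell by 0.67 to 0.49. Psmd7, which encodes RPN8, had the same mean in both groups, 30.7 ± 3.09 and 30.7 ± 2.42 CPM (SD, n = 4), and had a log2 fold change of 0.28 with library size alone that did not pass (adjusted p = 0.0741, edgeR).

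The 2 subunits that were higher are Psmd13 and Psmd14. Psmd13 encodes RPN9, a subunit of the lid of the 19S cap. Psmd13 (ENSMUSG00000025487, GRCm38 chr7:140881968-140898643, plus strand) was at 7.59, 7.55, 8.71 and 6.48 CPM in control and 23.9, 22.2, 25.5 and 19.1 CPM in KO replicates 1 to 4. Every KO library was above every control library by a wide margin, and the log2 fold change was 1.58 ± 0.16 (2.98-fold; adjusted p = 6.87e-06, edgeR), between 1.51 and 1.86 under the 18 settings. Exons of Psmd13 share 342 bases with Sirt3 on the opposite strand (10.1% of the exon bases of Psmd13), and since no strand setting is given, reads there cannot be assigned. Sirt3 itself was at 4.74 ± 0.97 CPM in control and 4.43 ± 1.35 CPM in KO oocytes (adjusted p = 0.759, edgeR), and the part of shared reads in the level of Psmd13 was not tested. Psmd14 encodes RPN11, the metalloprotease that removes ubiquitin chains from substrates. Psmd14 was at 63.0, 48.9, 57.3 and 51.2 CPM in control and 75.4, 73.4, 73.6 and 76.9 CPM in KO libraries. All KO libraries were above all control libraries, with a log2 fold change of 0.44 ± 0.11 (adjusted p = 0.00566, edgeR) that was 0.73 with library size alone.

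**Figure D3:**
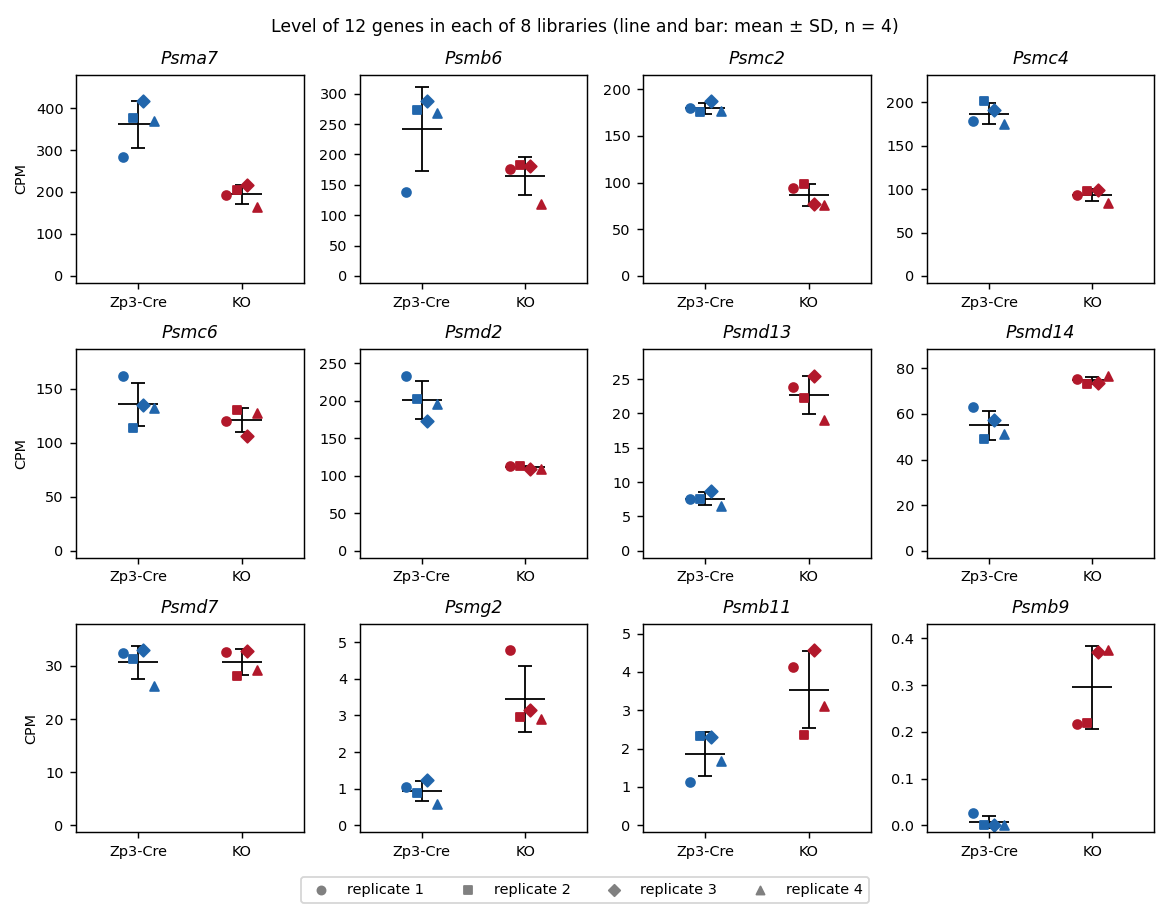
CPM (y axis, linear and from 0) of 12 members in the 4 Zp3-Cre and 4 KO libraries, with the replicate given by the symbol and lines for the mean ± SD (n = 4). Psma7, Psmc2, Psmc4 and Psmd2 show lower KO points without overlap and Psmd13, Psmd14, Psmg2, Psmb11 and Psmb9 higher ones, while Psmc6 and Psmd7 overlap and Psmb6 overlaps through control replicate 1.

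Levels can be compared between genes per length only, here as CPM per kb of the longest annotated transcript. In control oocytes the 31 constitutive subunits ranged from 3.81 CPM per kb for Psmd13 to 251 CPM per kb for Psmb6, with a median of 81.2 CPM per kb. The 3 members with the highest level per length were Psmb6 (251 ± 72.1 CPM per kb), Psma7 (239 ± 37.4) and Psmd4 (234 ± 49.8; SD, n = 4), whose libraries overlap in range. Per kb of all annotated exons the order was another, with Psmd4 at 177, Psmb2 at 144, Psmb6 at 129, Psma2 at 121, Psmc1 at 119 and Psma7 at 118 CPM per kb. In the order of control levels, the libraries of neighbouring genes overlapped in 27 cases and did not in 3, which lie between Psmb2 and Psma2, between Psmd14 and Psmd3 and between Psmd11 and Psmd13. In KO oocytes the range was 11.4 to 170 CPM per kb with a median of 54.1, and the ratio of the highest to the lowest level was 14.9 in place of 65.7. This ratio turns on Psmd13, since the next lowest gene, Psmd11, was at 16.4 CPM per kb in control and 11.7 in KO oocytes. The SD over the 31 genes was 70.3% of their mean in control and 65.9% in KO oocytes. By transcript length and mean, Psmb6 stayed the highest and Psmd13 the lowest in KO oocytes. There Psmd13 (11.4 ± 1.38 CPM per kb) overlapped Psmd11 (11.7 ± 1.63; SD, n = 4). Psmd14 moved from place 27 to place 18, Psmd2 from place 18 to place 24 and Psmc4 from place 12 to place 17.

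**Figure D4:**
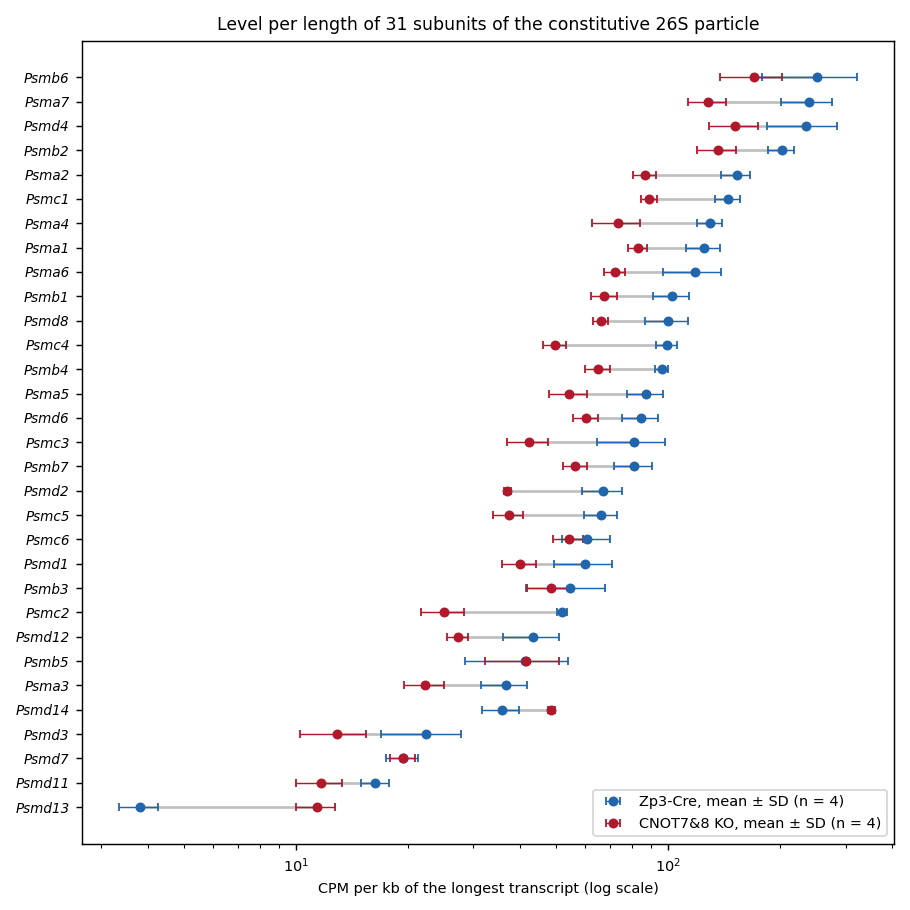
CPM per kb of the longest transcript (x axis, log scale) of the 31 constitutive 26S subunits in order of their control level (y axis), with points for the mean and bars for the SD (n = 4) of Zp3-Cre and KO libraries. KO points lie left of the control points for most genes, Psmb5 and Psmd7 coincide, and Psmd14 and Psmd13 lie to the right, Psmd13 moving from 3.81 to 11.4 CPM per kb.

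Promoters and 3′UTR elements are shown for members that moved in different directions. The transcription factor NRF1, encoded by Nfe2l1, is known to raise proteasome subunit genes together through antioxidant response elements (ARE) when the particle is impaired. The letters TGACNNNGC, a core of this element, and CCAAT, the box bound by NF-Y, were searched on both strands in RefSeq promoters (GRCm38.p6, 250 bases before to 50 after a start), which were found for 42 member genes. TGACNNNGC was in 13.3% of the 45 promoter windows of these genes and 12.4% of all 32851 windows, and CCAAT in 33.3% and 37.4%. The 6 genes with the ARE letters were Psmb5, Psmb6, Psmc6, Psmd9, Psmd12 and Psme4, of which Psmb6, Psmd9 and Psmd12 were lower and the others did not pass. Such matches describe letters and are no evidence of binding. The 250 bases before the start are printed 5′ to 3′ on the strand of the gene for Psmc2, the DEG with lower level, for Psmb6, the highest per kb of the longest transcript, and for the subunits that rose, with either set of letters in capitals (ATTGG is CCAAT on the other strand):
Psmc2 (chr5:21785025-21785274, plus strand): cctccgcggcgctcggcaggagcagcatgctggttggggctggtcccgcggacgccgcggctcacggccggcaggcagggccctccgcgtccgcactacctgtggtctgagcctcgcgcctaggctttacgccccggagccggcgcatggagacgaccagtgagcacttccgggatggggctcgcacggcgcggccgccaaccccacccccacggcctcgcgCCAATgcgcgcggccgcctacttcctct
Psmb6 (chr11:70525107-70525356, plus strand): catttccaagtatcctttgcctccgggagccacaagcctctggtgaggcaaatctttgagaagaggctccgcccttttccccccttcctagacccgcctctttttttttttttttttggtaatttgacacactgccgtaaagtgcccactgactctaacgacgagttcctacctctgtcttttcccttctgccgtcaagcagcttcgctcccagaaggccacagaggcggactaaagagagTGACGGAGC
Psmd14 (chr2:61711444-61711693, plus strand): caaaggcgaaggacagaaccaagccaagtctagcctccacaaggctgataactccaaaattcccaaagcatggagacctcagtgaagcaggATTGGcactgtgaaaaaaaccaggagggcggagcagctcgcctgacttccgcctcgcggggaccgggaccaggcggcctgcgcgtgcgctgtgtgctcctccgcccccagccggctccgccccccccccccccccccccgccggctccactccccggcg
Psmd13 (chr7:140882144-140882393, plus strand): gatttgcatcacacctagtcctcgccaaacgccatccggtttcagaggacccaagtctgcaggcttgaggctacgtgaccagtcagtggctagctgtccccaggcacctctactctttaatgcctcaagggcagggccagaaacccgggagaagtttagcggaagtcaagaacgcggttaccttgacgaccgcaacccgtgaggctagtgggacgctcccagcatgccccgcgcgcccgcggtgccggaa
Neither set of letters is in the window of Psmd13. Nfe2l1 itself was at 204.9 to 259.5 CPM in control and 236 to 311 CPM in KO libraries, with a log2 fold change of 0.19 ± 0.12 that did not pass (adjusted p = 0.208, edgeR).

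Many stored mRNAs of oocytes carry cytoplasmic polyadenylation elements (CPE), which the protein CPEB binds, and the letters TTTTAT were searched in the longest annotated 3′UTR of each gene. The 3′UTRs of proteasome genes were short, with a median of 298 bases over 47 tested members against 1118 bases over 15132 tested genes. Only genes with a 3′UTR of at least 50 bases were counted, which left out Psme2 (44 bases) and Psme2b (45 bases). TTTTAT was present in 16 of the 47 members (34.0%), against 56.2% of all genes and 31.3% of the 5524 genes with a 3′UTR of 134.5 to 866 bases, the quartiles of the members. The median log2 fold change was −0.47 in the 16 members with the letters and −0.57 in the 31 without, and 10 of 16 and 19 of 31 were lower. Over all genes the medians were 0.098 with the letters and −0.079 without, 2206 of 8504 and 2020 of 6628 genes were lower, and 2871 and 1783 were higher. The 5 members with higher level and a 3′UTR in this count were all among the 31 without the letters, and nothing is read from so few. Windows of at most 30 bases around the letters, in capitals, are printed for Psma4 and Psmd4, which were lower, and for Psmc6 and Psmd7, which did not pass:
Psma4 (chr9:54957791-54957820, plus strand): cagaatcacggaTTTTATaactccttagag
Psmd4 (chr3:95033322-95033343, minus strand): gtgtTTTTATttccgttgtcct
Psmc6 (chr14:45348998-45349027, plus strand): tcttatgacttaTTTTATattttgttttcc
Psmd7 (chr8:107580609-107580638, minus strand): gggcactcttccTTTTATccttgaaaggga

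The immune beta subunits, which interferon induces and which replace the constitutive sites in antigen-presenting cells, were low in both groups, Psmb8 and Psmb9 at or near the floor of detection and Psmb10 above it at up to 1.54 CPM. Psmb8 had 1 count in 1 library of each group and none in the others, was not tested and is given no fold change. Psmb9 (ENSMUSG00000096727, GRCm38 chr17:34181987-34187764, minus strand) was at 0.0267, 0, 0 and 0 CPM in control and 0.217, 0.220, 0.370 and 0.375 CPM in KO libraries. These levels are 1 count over the 4 control libraries and 23 counts over the 4 KO libraries, a ratio of 27.1 after scaling with an exact 95% interval of 4.41 to 1118 that covers counting error only. Psmb9 was called a DEG with higher level (adjusted p = 0.00145, edgeR), but its fitted log2 fold change of 4.16 depends on the prior count. It entered the test through the KO libraries alone, since no control library reached the 0.2 CPM of the filter, so it could have been called in this direction only and its count among the higher members is no support. The opposite strand at Psmb9 holds Tap1, with 212 shared exon bases and 230 counts in all libraries. Tap1 was at 0.0535 to 0.204 CPM in control and 2.04 to 4.38 CPM in KO libraries, so reads of Tap1 and Psmb9 cannot be told apart in those bases. Psmb10 was at 0.401, 1.23, 0.953 and 0.728 CPM in control and 0.977, 1.04, 1.54 and 0.409 CPM in KO libraries, which overlap (0.26 ± 0.47, adjusted p = 0.665, edgeR). Psmb11, the thymic subunit of the chymotrypsin-like site, rose by 0.94 ± 0.30 on the log2 scale (adjusted p = 0.0198, edgeR), from 1.86 ± 0.58 to 3.54 ± 0.996 CPM, and lost the call without KO replicate 1 and without KO replicate 3.

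For 5 pairs of genes with exchangeable roles, the ratio within each library was compared as log2 of the ratio of CPM, each with 0.5 added, by exact two-sided permutation tests over 70 assignments, whose smallest p is 0.0286. Psma8 over Psma7 was −8.74, −9.42, −8.96 and −8.63 in control and −8.31, −7.95, −8.07 and −8.09 in KO libraries, a difference of 0.83. Psma8 was below the added 0.5 in every library, so this ratio is set mostly by the level of Psma7 and its scaling, and no p is given. Psmb9 over Psmb6 differed by 1.17, from −8.85 ± 0.54 to −7.68 ± 0.42 (SD, n = 4), and by 3.79 where 0.5 was added to counts in place of CPM. Psmb9 too was below the added 0.5 in every library and is given no p. Psmb10 over Psmb7 differed by 0.67 (exact p = 0.171, adjusted over the 5 pairs 0.214) and Psme1 over Psme3 by 0.97 (exact p = 0.0857, adjusted 0.143), with overlap. With 0.5 added to counts these differences were 0.75 and 1.31. Psme1 was below the added 0.5 in control replicates 1, 3 and 4 and KO replicate 4, and Psmb10 in control replicate 1 and KO replicate 4. Both ratios thus depend in part on the added value. Psme4 over Psme3, both genes of alternative caps, was 1.49 ± 0.23 in control and 1.47 ± 0.22 in KO libraries (difference −0.03, exact p = 0.771, adjusted 0.771). No pair passed an adjusted p of 0.05. With a smallest p of 0.0286 over 5 pairs, passing required several pairs to reach it together, so little is read from this. The adjustment also counted the pairs that are given no p here. Psmb8 over Psmb5 was not computed because Psmb8 was at the floor in both groups.

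The assembly chaperones moved in both directions. In the 20S chaperones, Psmg1 and Psmg2 encode partners of the dimer PAC1-PAC2, which starts the alpha ring, and Psmg3 and Psmg4 those of PAC3-PAC4. Psmg2 (ENSMUSG00000024537, GRCm38 chr18:67641599-67654162, plus strand) was at 1.04, 0.888, 1.23 and 0.583 CPM in control and 4.78, 2.97, 3.15 and 2.90 CPM in KO libraries. All KO libraries exceeded all control libraries, and the log2 fold change was 1.84 ± 0.29 (3.58-fold; adjusted p = 0.000215, edgeR). Its partner gene Psmg1 was at 36.5 ± 2.69 and 30.4 ± 2.29 CPM, with a value of −0.27 that did not pass (adjusted p = 0.0749, edgeR) although the groups did not overlap. Psmg3 was at 6.60, 18.2, 17.6 and 14.9 CPM in control and 8.47, 8.51, 9.93 and 3.75 CPM in KO libraries. Control replicate 1 of Psmg3 lies among the KO libraries, and the log2 fold change of −0.91 ± 0.34 (adjusted p = 0.0372, edgeR) was −1.16 without it (adjusted p = 0.00279) and −0.66 without KO replicate 4 (adjusted p = 0.099). Psmg4 had −0.60 ± 0.31 and did not pass (adjusted p = 0.118, edgeR), but passed without control replicate 1 (−0.85, adjusted p = 0.00588).

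Of the 3 chaperones of the 19S ATPase ring, Psmd5 and Psmd9 were lower and Psmd10 did not pass. Psmd9 was at 60.0, 126, 113 and 105 CPM in control and 60.2, 57.8, 91.1 and 47.5 CPM in KO libraries. Control replicate 1 again lies with the KO libraries, and the log2 fold change was −0.65 ± 0.23 (adjusted p = 0.0311, edgeR), −0.84 without it (adjusted p = 0.0018) and −0.53 without KO replicate 4 (adjusted p = 0.0971). Psmd10, known as gankyrin, was at 71.4, 53.0, 50.4 and 50.8 CPM in control and 57.0, 64.2, 69.3 and 69.4 CPM in KO libraries. Here control replicate 1 was the highest of all, and 0.20 ± 0.14 (adjusted p = 0.228, edgeR) became 0.34 without it (adjusted p = 0.0173).

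The alternative caps open the gate of the 20S core without ubiquitin, and their genes differed from each other. Psme3, the nuclear cap PA28gamma, was at 204, 172, 144 and 168 CPM in control and 128, 128, 130.4 and 138 CPM in KO libraries. It was lower without overlap (−0.39 ± 0.12, adjusted p = 0.0126, edgeR), a call lost with library size alone (−0.10, adjusted p = 0.394). Psme4, which encodes PA200, a cap known from spermatids and acetylated histones, was at 722, 434, 396 and 430.4 CPM in control and 326, 351, 321 and 475 CPM in KO libraries. The highest library of each group, control replicate 1 and KO replicate 4, sets the spread of Psme4, and −0.43 ± 0.19 did not pass (adjusted p = 0.0756, edgeR), was −0.19 without control replicate 1 (adjusted p = 0.223) and passed without KO replicate 4 (−0.54, adjusted p = 0.0139). Psme1 and Psme2 encode the subunits of the interferon-inducible cap PA28. Psme1 was at 0.455, 0.691, 0.476 and 0.291 CPM in control and 1.41, 1.81, 0.617 and 0.409 CPM in KO libraries. Only KO replicates 1 and 2 were above the control libraries, and 1.07 ± 0.51 did not pass (adjusted p = 0.0904, edgeR). Without KO replicate 4 Psme1 was a DEG (1.41, adjusted p = 0.0224, edgeR), as it was with library size alone (1.36, adjusted p = 0.0409) and with TMM from genes above 10 CPM (1.33, adjusted p = 0.0469). Psme2 rose by 0.36 ± 0.14 (adjusted p = 0.0494, edgeR), from 13.8 ± 1.88 to 17.7 ± 0.40 CPM without overlap, at the edge of the threshold, and passed in 7 of the 18 other settings, not without control replicate 1 (0.32, adjusted p = 0.0796) or KO replicate 4 (0.36, adjusted p = 0.084). Psme2b, a near-identical copy of Psme2 with which reads may be shared, had 0.74 ± 0.40 (adjusted p = 0.135, edgeR), and Psmf1, which encodes the inhibitor PI31, had −0.30 ± 0.13 (adjusted p = 0.0701, edgeR) and passed without control replicate 1 (−0.38, adjusted p = 0.0101).

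The members without the role were low or did not pass. Psmc3ip was at 50.2 ± 10.5 CPM in control and 39.7 ± 8.03 CPM in KO oocytes (−0.34 ± 0.18, adjusted p = 0.136, edgeR), and passed without control replicate 1 (−0.47, adjusted p = 0.0185). Its exons share 385 bases with Mlx on the opposite strand, and Mlx rose by 0.73 ± 0.11 (adjusted p = 0.000192, edgeR). Psmb5-ps had no count, and Psmb6-ps had 1 count in control and 9 in KO libraries, a ratio of 10.6 with an exact 95% interval of 1.47 to 465, for reads that could also come from Psmb6.

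**Figure D5:**
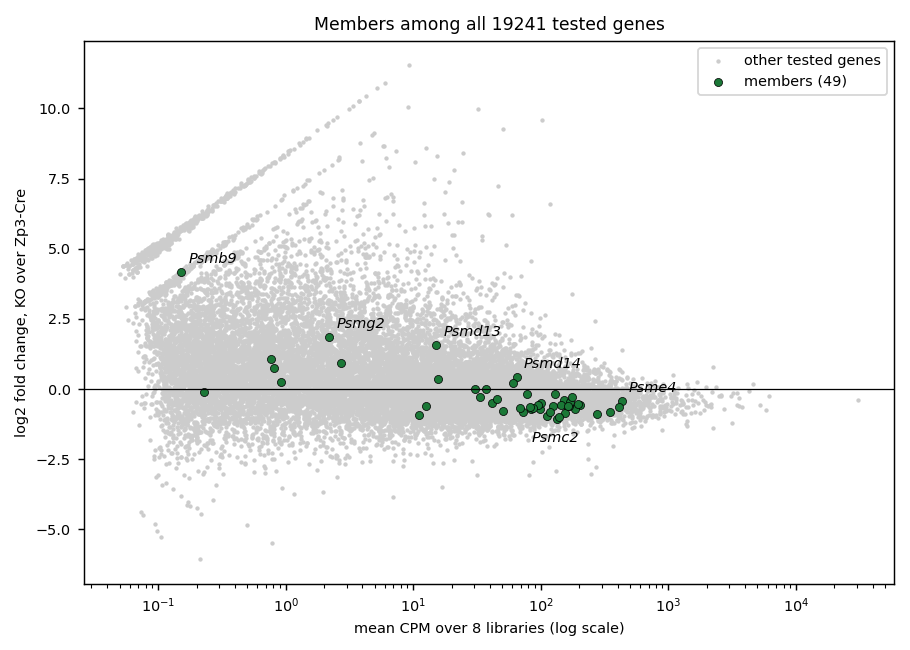
Log2 fold change, KO over control (y axis), against the mean CPM over the 8 libraries (x axis, log scale) for the 19241 genes tested, with the 49 members in green. Most members lie above 20 CPM and below 0, where the cloud of all genes also has its median below 0, and of the 6 members that rose, Psmd14 alone lies above 20 CPM.

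Genes that work with the proteasome but carry other names were mostly lower or did not pass. Of 25 such genes measured (of 26 listed), 16 were lower and none was higher at an adjusted p of at most 0.05, with a median log2 fold change of −0.46. The background shares were 24.1% lower and 31.2% higher over all genes tested, and 45.2% and 17.5% over genes of at least 20 CPM. Uchl5, the deubiquitinase bound to the cap, fell by 0.88 ± 0.16 (adjusted p = 0.000538, edgeR), and Pomp, the maturation factor of the 20S core, by 0.70 ± 0.11 (adjusted p = 0.000229, edgeR). Ecpas, the adaptor ECM29, fell by 0.77 ± 0.17 (adjusted p = 0.00222, edgeR). The small cap subunits Adrm1 and Sem1 had −0.49 ± 0.21 and −0.45 ± 0.20 and did not pass (adjusted p = 0.0646 and 0.0687, edgeR). Among genes of ubiquitin and its activating enzymes, Ubb and Uba1 were lower, and Uba6 did not pass. Ubb, a polyubiquitin gene, was at 874, 1289, 1318 and 1211 CPM in control and 640, 732, 775 and 547 CPM in KO libraries (−0.80 ± 0.15, adjusted p = 0.000725, edgeR). Uba1, the main activating enzyme, fell by 0.75 ± 0.10 (adjusted p = 8.23e-05, edgeR).

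Genes of antigen presentation by MHC class I and of the interferon response were listed as the setting in which immune subunits act. Of 11 tested, 7 were higher (Irf9, Nlrc5, H2-K1, H2-D1, Tap1, Tap2 and Erap1) and Irf1 was lower. The others, B2m and Tapbp among them, did not pass. Over all genes tested, 31.2% were higher and 24.1% lower. Irf9, Nlrc5 and Tap1 entered the test through the KO libraries alone, since no control library reached the filter of 0.2 CPM before TMM scaling. They could have been called higher only, and their calls are no support. H2-K1 was at 10.7, 10.8, 9.32 and 13.7 CPM in control and 30.9, 25.2, 34.0 and 26.3 CPM in KO libraries (1.39 ± 0.16, adjusted p = 2.38e-05, edgeR), without overlap. The other 6 were under 2 CPM in each control library. Among them, the groups of H2-D1 overlapped, at 0.0987 to 0.408 CPM in control and 0.238 to 1.85 CPM in KO libraries. Shares over genes of such low levels were not computed, so the share over all genes is no matched background here. Markers of other cell types differed among themselves. Of 10 granulosa and cumulus markers tested, 6 were higher (Fshr, Inhba, Inha, Kitl, Nr5a2 and Ptgs2), Cyp19a1 was lower and 3 did not pass. Their summed level was 128 to 176 CPM in control and 240 to 302 CPM in KO libraries, of which Nr5a2, Kitl and Ptgs2 hold the most in KO libraries. Foxl2, also on this list, had at most 1 count in any library and was not tested. Of 4 leukocyte markers tested, Ptprc and Cd68 were higher and 2 did not pass. The sum of the 7 listed was 1.04 to 2.42 against 3.58 to 5.37 CPM, with Lyz2, Cd3e and Cd79a too low to test. Ptprc entered the test through the KO libraries, with only control replicate 3 above 0.2 CPM in control. None of the endothelial (1) and stromal (2) markers tested passed. Whether other cells were present and had a part in the levels of Psmb9, Psmb11, Psme1, Psme2, Psmg2 and the MHC genes was not tested.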

How the data were processed

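The data are RNA-seq of GV oocytes, with 4 libraries in each of 2 groups that the labels name. The authors mapped 150-bp read pairs to GRCm38 with STAR 2.6.1d (nf-core/rnaseq) and deposited counts of reads for each gene, which were not normalized. The counting tool, annotation and strand setting are not given in the sources used here, and the labels and the methods name different stranded kits. Gene positions and lengths came from GENCODE vM21 (same build, 98.0% of identifiers found), promoters from RefSeq.

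Genes that reached 0.2 CPM in at least 2 libraries entered the test on the counts with edgeR 4.0.16 (R 4.3.3), TMM scaling and the quasi-likelihood test with Benjamini-Hochberg adjustment over all 19241 genes, without covariates. CPM are counts scaled by TMM library size, SE is the fold change over the root of the F statistic, and a DEG passed both an adjusted p of 0.05 and a 2-fold change. In simulated data with 18537 genes, 183 of 200 changed genes were recovered, with 1 false call. The planted changes were larger than 2-fold and balanced in direction, with the same dispersion for every gene and no outlying library. The recovery therefore does not carry over to the smaller changes of most members. Alternatives were other scalings, filters and thresholds, edgeR's exact test, DESeq2 1.42.0, the replicate number as a block and leaving out each library. Values in all libraries were given to DEGs, to the lowest and highest fold change of each class, to the pairs and to the 3 highest levels per length, and for other genes by choice after their values were seen. The members and gene lists were chosen with earlier results of these data known. Some genes of the ubiquitin and interferon lists are not reported here. Floors and intervals cover counting error only.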

Additional observations from a re-analysis of the deposited data

Results flagged for a closer look

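Single libraries that lay far from the other 3 of their group, by Dixon's 95% critical value, were found in 11 of 42 groups of the genes described in full, where chance gives about 1 in 20. Control replicate 1 accounts for 7 of them. It was low for Psmb1 (169 CPM, the others 210.5 to 218) and Psmb6 (139 CPM, the others 268 to 288) and high for Psmb7 (270 CPM, the others 213 to 222), Psmd10 (71.4 CPM, the others 50.4 to 53.1) and Psme4 (722 CPM, the others 396 to 434). For Psmb8 and Psmb9 its value of 0.0267 CPM is a single count beside none. In KO oocytes, replicate 4 was low for Psmb6 (118 CPM, the others 177 to 183), replicate 3 was low for Psmb7 (143 CPM, the others 166 to 167), and replicate 1 was high for Psmg2 (4.78 CPM, the others 2.90 to 3.15) and held the single count of Psmb8 (0.109 CPM). Control replicate 1 is the deepest library and KO replicate 1 the shallowest, and the part of depth in these values was not tested. Over the 49 tested members, control replicate 1 was the highest control library for 22 and the lowest for 17, and KO replicate 4 was the highest KO library for 11 and the lowest for 25.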

How the results depend on the processing

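The count of members past an adjusted p of 0.05 stayed within 1.5 times in each of the 18 settings, except with library size alone, where 19 in place of 29 were lower. DEGs with lower level numbered 0 in place of 1 with library size alone, upper quartile scaling, TMM from genes above 10 CPM, a filter of 1 CPM in 4 libraries and both control replicate 1 and KO replicate 4 left out (a choice made after seeing the data), 21 at a 1.5-fold threshold and 0 to 4 without 1 library (4 without control replicate 1, 0 without KO replicate 4). DEGs with higher level numbered 6 in place of 3 with library size alone, 5 with TMM from genes above 10 CPM and 3 to 5 without 1 library. The median log2 fold change of members was −0.29 with library size alone, −0.47 with upper quartile scaling and −0.32 with TMM from genes above 10 CPM. Psmb9 over Psmb6 was 3.79 with 0.5 added to counts. The median level of the 31 subunits was 50.8 CPM per kb of all exons in place of 81.2.

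Reversals concerned uncalled genes only. With library size alone and TMM from genes above 10 CPM, values were 0.0999 and 0.058 for Psmb3, 0.12 and 0.0897 for Psmc6, 0.186 and 0.146 for Psma8, 0.282 and 0.25 for Psmd7, and, with the former, 0.0171 for Psmg1. Psmd7 was 0.0115 with RLE, 0.00836 with DESeq2, 0.0973 with upper quartile scaling, 0.0683 with the stricter filter, 0.0156 with no filter and −0.0701 to 0.061 without 1 library. Without both doubted libraries Psmd7 was 0.046, Psma8 0.0372 and Psmb5 −0.064. Without 1 library Psma8 ranged from −0.444 to 0.294, Psmb5 from −0.183 to 0.162 and Psmb10 from −0.0498 to 0.582. The calls of Psmb6, Psmd9, Psmg3, Psme2 and Psmb11 were each lost without some single library; the cause was not tested.

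With the replicate number as a block, 29 members were lower and 5 higher, the DEGs were 1 and 3, the median was −0.53 and Psmd7 0.00245. The numbers are not known to pair the samples, since the genotypes come from different animals and deviations of same-numbered libraries correlated at −0.121 to 0.11. Depth limits Psmb8, Psmb9, Psma8 and Psmb6-ps, which lie near the floor of 3 counts.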
